A study of Drosophila melanogaster with 5 samples.

Results

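The fourth chromosome of Drosophila melanogaster is the smallest of its chromosomes, and its genes were examined here as a group in flight muscle depleted of M1BP. A gene was included when the counts table placed its first exon on chromosome 4 and when its counts summed to at least 50 over the 5 libraries. Of 17494 genes in the table, 109 lay on this chromosome and 84 were included. A further 20 fell below 50 counts, 4 of them without any count, and bt, ATPsynbeta, unc-13, RpS3A and eIF4G1 were left out by name. Just inside the limit were the antisense RNA asRNA:CR45124 with a count sum of 50, lncRNA:CR44440 with 55 and ey with 56. Just outside were lncRNA:CR43956 with 45, asRNA:CR44031 with 38 and CR32009 with 33. The 84 genes comprised 71 protein-coding genes, 12 non-coding RNA genes and 1 pseudogene, with 42 on each strand. They spanned positions 879 to 1271759 of chromosome 4 in the dm6 build.

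In both groups the muscle driver Mef2-GAL4 was present. The wild-type group (WT, replicates 1, 2 and 3) carried no RNAi transgene, while the other group expressed UAS-M1BP RNAi (M1BP RNAi, replicates 2 and 3). M1BP, Motif-1 binding protein, is a zinc-finger transcription factor that binds a promoter element found in many housekeeping genes. Dorsolongitudinal flight muscles were dissected from pupae 48 h after puparium formation (APF), and the muscles of 6 to 8 pupae were pooled per library of polyadenylated RNA. Per the study, the weaker of its RNAi lines was chosen for sequencing, and Mef2-GAL4 is not restricted to this muscle. Per the study, experiments were done in independent biological replicates and RNA was prepared in triplicate, and M1BP RNAi replicate 1 was not analysed here.

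The fourth chromosome is unusual in that its genes lie within chromatin rich in repeats and in heterochromatin marks and yet are transcribed. Heterochromatin protein 1a (HP1a) covers much of the chromosome. The histone H3 lysine 9 methyltransferase Eggless (egg) acts there, and the RNA-binding protein Pof, named for its painting of the fourth chromosome, binds nascent transcripts of its genes. The chromosome carries few genes, among them regulators of Hedgehog and Wnt signalling, Pax-family transcription factors, ephrin and plexin signalling genes and genes of calcium handling.

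Total counts were 41676901 to 57514444 per library. M1BP RNAi replicate 2 stood apart, at Euclidean distances of 44.6 to 48.1 from the WT libraries on transformed counts, against 32.9 to 36.5 for replicate 3, 33.6 between the M1BP RNAi libraries and 23.2 to 27.7 within WT. The 6 testis markers summed to 4806 normalised counts (counts scaled by the size factor of each library) in that replicate, to 146 in replicate 3 and to 38.1 to 104 in WT. The male-specific RNAs lncRNA:roX1 and lncRNA:roX2 summed to 14.4, 5577 and 1184 in WT and to 10350 and 6472 after M1BP RNAi, and the sex of the pupae is not in the labels. The 7 flight muscle markers were present throughout, at 1744000 to 2458000 in WT and at 1621000 and 1899000 in M1BP RNAi, and the 4 neuronal markers summed to 2058 to 2395 and to 1880 and 2034. The 2 trachea markers summed to 5055 to 5695 in WT and to 3097 and 4729 in M1BP RNAi. The 2 markers of tendon and epidermis summed to 3383 to 4779 and to 2629 and 2305. Both sums lay below every WT library in both M1BP RNAi libraries. Of the single markers, trh (trachea) and Tsp (tendon and epidermis) did so too, while btl (trachea) and sr (tendon and epidermis) overlapped between groups. Of the marker genes examined, 0 were at 0 in all 5 libraries together, while lncRNA:roX2 was at 0 in WT replicate 1. In these whole muscle preparations, fewer cells of a type and less RNA per cell cannot be told apart.

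The targeted gene was checked first. M1BP had 666, 673 and 642 normalised counts in WT (replicates 1, 2 and 3) against 410 and 456 after RNAi (replicates 2 and 3). The log2 fold change was -0.61 (DESeq2 adjusted p 1.04e-04, SE 0.136). The direction held in every alternative fit, but the adjusted p passed 0.001 in none of the 5 fits without 1 library, nor in edgeR (0.0243) or with lncRNA:roX1 as a covariate (0.193).

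Most of the 84 genes were active in the muscle. Among protein-coding genes with a count sum of at least 50, the median WT level was 694.3 normalised counts per kb of exon on the fourth chromosome (n = 71), against 254.6 over all chromosomes (n = 9918) and 221.6 to 270.3 on the other arms. The count sum ran over all 5 libraries, so a gene near 0 in WT could pass on its M1BP RNAi counts. The upper quartiles of the WT level were 1403 on the fourth chromosome and 810 over all chromosomes. The summed exon length per gene was also greater for the fourth-chromosome coding genes, with a median of 4376 bases against 2070 over all chromosomes. The mean WT count was at least 1000 for 50 of the 84 genes, between 100 and 1000 for 16 and under 100 for 18.

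ND-49, which encodes a core subunit of respiratory complex I, was the highest at 35676 normalised counts per kb in WT. It was followed by CG33521 at 21912, CG1674 at 17770 and PMCA, the plasma membrane calcium pump, at 7832. Together these 4 genes took 50.8% of the counts of the 84 genes in WT. Next were CaMKII, the calcium/calmodulin-dependent protein kinase, at 3898 and the transcription factor gene NfI at 3526, then CG31997 at 3190, CG11076 at 3119, Gyf, a translational regulator, at 2723, and the adaptor protein gene Crk at 2621. At the other end lay genes of nerve cells and of other tissues. JYalpha, a sodium/potassium pump subunit required for male fertility, had 0.581 normalised counts per kb. The transporter gene Gat had 3.35, the transcription factor gene onecut 3.51, the Activin ligand gene Actbeta 3.76, the Pax6 gene ey 4.0 and the glutamate receptor gene mGluR 4.44.

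**Figure D1:**
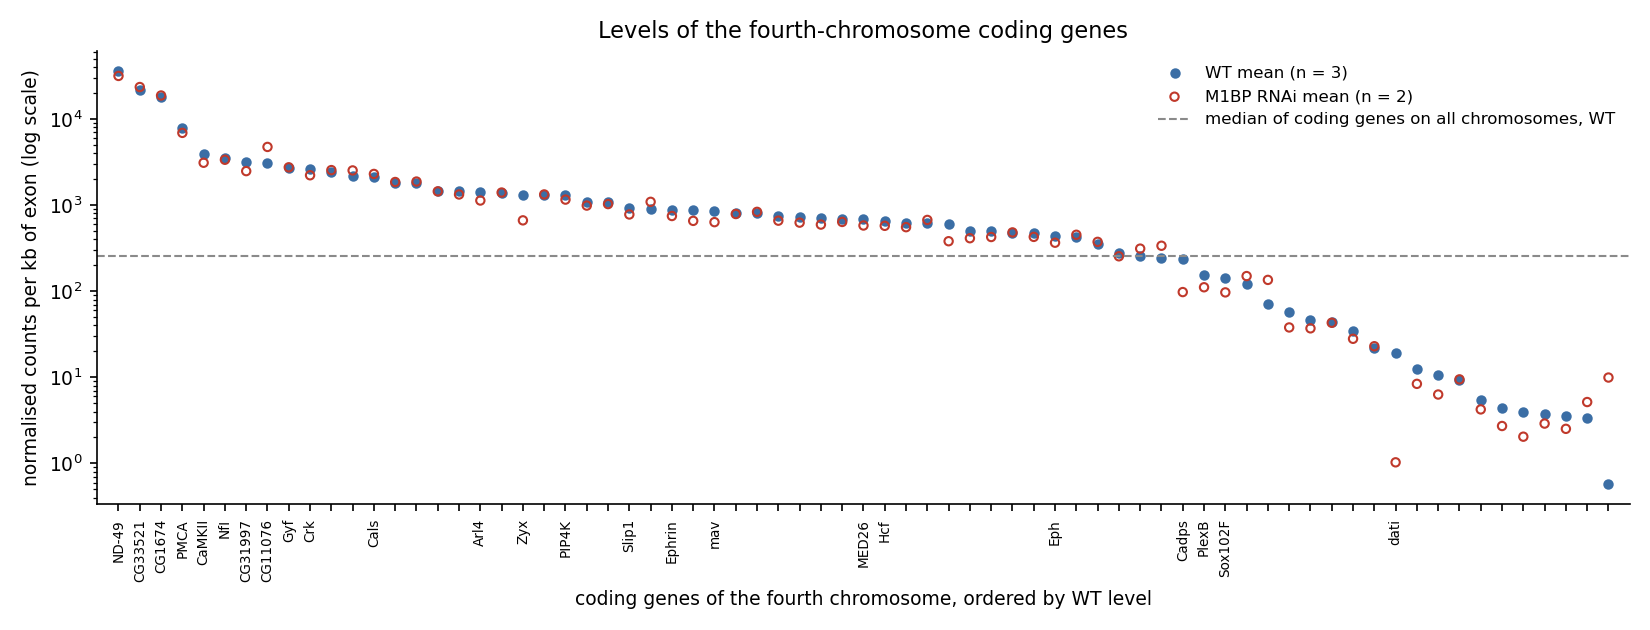
Mean normalised counts per kb of exon (log scale) of the coding genes of the fourth chromosome, ordered by their WT level, in WT (filled points, n = 3) and M1BP RNAi (open points, n = 2), with symbols for the genes named by rule. The dashed line is the median of coding genes on all chromosomes in WT, 254.6, and the fourth-chromosome median of 694.3 lies above it.

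Of the 10 highest genes only CG11076 was called. Called means here a fold change of 1.5 or more together with an adjusted p of 0.001 or less, the rule of the study. ND-49 had 59415, 48483 and 62599 normalised counts in WT and 49983 and 50609 after M1BP RNAi, with a log2 fold change of -0.18 (DESeq2 adjusted p 0.386, SE 0.142). CG1674 had a log2 fold change of 0.08 (SE 0.117), CG33521 of 0.10 (SE 0.0936), NfI of -0.07 (SE 0.0769) and Gyf of 0.01 (SE 0.136). The value for Gyf turned to -0.09 without WT replicate 2. PMCA stood at -0.19 (SE 0.105), Crk at -0.24 (SE 0.128), CaMKII at -0.33 (SE 0.134) and CG31997 at -0.36 (SE 0.258).

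Few genes of this chromosome were called. All 84 genes received a test, and 3 were called (3.57%), against 6.75% of the 11282 genes tested. The share was closer to that of all genes in other fits, at 4.82% against 4.80% without WT replicate 1, 5.95% against 6.25% without WT replicate 3 and 2.38% against 2.90% with lncRNA:roX1 as a covariate. CG11076 was the 1 higher call, where 3.78% of all genes were called higher, and Zyx and dati were the 2 lower calls, where 2.98% of all genes were called lower. At an adjusted p of at most 0.05 without a fold minimum, 12 genes passed (14.3%), 3 higher and 9 lower, against 24.4% of all genes, 14.7% higher and 9.72% lower. With a limit of 0.001 and no fold minimum, 4 passed, where 8.85% of all genes did. An unadjusted p under 0.05 was found for 21 genes (25.0%), 17 of them lower, against 35.7% of all genes. With edgeR, 82 genes were tested and 0 were called at the thresholds, where 0.0814% of all genes were called. At an edgeR adjusted p of 0.05, 4 passed, where 11.3% of all genes did, and 15 had an unadjusted p under 0.05.

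Zyx encodes zyxin, a LIM-domain protein of focal adhesions that binds actin regulators. Zyx (FBgn0011642, 1057365 to 1065001, minus strand) had 3077, 3049 and 3275 normalised counts in WT and 1593 and 1565 after M1BP RNAi. The libraries of each group lay close together and the groups were far apart. The mean fell from 3134 ± 123 (SD, n = 3) to 1579 ± 20.1 (SD, n = 2), which is 1.98-fold lower, and the log2 fold change was -0.99 (DESeq2 adjusted p 1.36e-29, SE 0.0842). Zyx was called in every DESeq2 alternative, each library left out included, while the edgeR adjusted p was 0.00319. Its exons share 96 bases with apolpp on the other strand.

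The transcription factor gene dati (datilografo) encodes a zinc-finger protein. In WT, dati (FBgn0262636, 375640 to 395605, minus strand) had 87.4, 150 and 114 normalised counts. In M1BP RNAi dati had 5.84 and 6.87, which rest on 8 and 7 counts. The lowest WT library was thus far above both M1BP RNAi libraries. The mean fell from 117 ± 31.4 (SD, n = 3) to 6.36 ± 0.727 (SD, n = 2), which is 18.4-fold lower, and the log2 fold change was -4.21 (DESeq2 adjusted p 1.17e-11, SE 0.575). The adjusted p was 0.00642 in edgeR. Of the genes with a WT mean of at least 100, dati had the largest log2 fold change in size on this chromosome.

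CG11076 was the higher call. CG11076 (FBgn0039929, 1029711 to 1031757, minus strand) had 4579, 4370 and 4816 normalised counts in WT and 7094 and 6823 after M1BP RNAi. The mean rose from 4588 ± 223 (SD, n = 3) to 6959 ± 192 (SD, n = 2), which is 1.52-fold higher and just past the fold minimum, with a log2 fold change of 0.60 (DESeq2 adjusted p 2.54e-11, SE 0.0833). The call did not hold in edgeR (0.0124), with lncRNA:roX1 as a covariate (0.00311), nor without WT replicate 2, where the log2 fold change of 0.55 lay below the minimum, nor without M1BP RNAi replicate 2, where the adjusted p was 0.0125. CG11076 shares 191 exon bases, 13.0% of its exons, with ATPsynbeta on the other strand, which had 2322187 counts against 28992 for CG11076. The log2 fold change of ATPsynbeta was -0.13 (DESeq2 adjusted p 0.560, SE 0.151). The library kit marks the strand, the strand setting of the counting is not given in the sources used here, and the part of this overlap in the result was not tested.

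**Figure D2:**
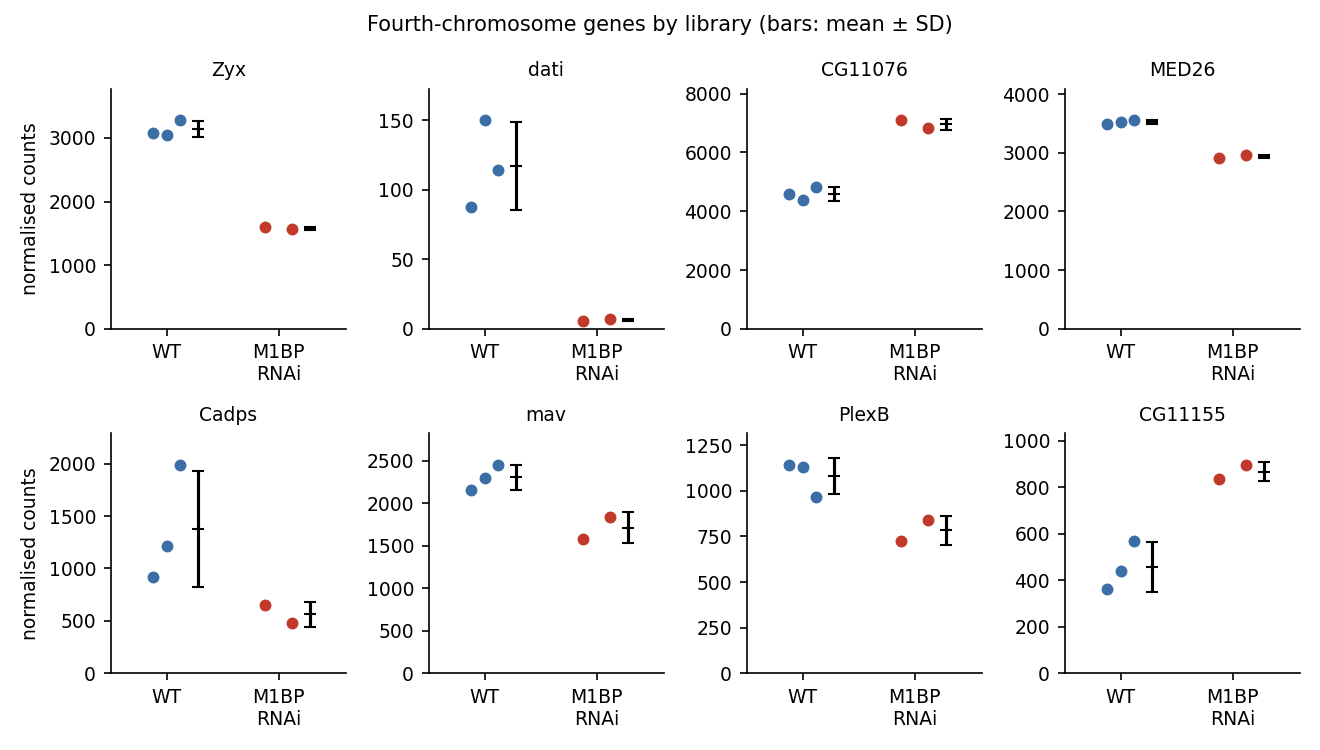
Normalised counts per library of 8 fourth-chromosome genes in WT (blue, n = 3) and M1BP RNAi (red, n = 2), with the mean and SD as black bars and each axis from 0. Zyx and dati lie lower and CG11076 higher in both M1BP RNAi libraries than in any WT library, while Cadps varies from 923 to 1993 within WT.

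Signalling genes were mostly lower, and most of the differences were small. Of 18 signalling genes, 14 had a negative log2 fold change and 4 a positive one, with a median of -0.23. Both M1BP RNAi libraries lay below all WT libraries for 11 of the 18 and above them for 0. Zyx was the only call in this list. The summed markers of trachea and of tendon and epidermis were lower as well, though btl and sr overlapped between groups. The part of such transcripts in the signalling values was not tested. Across the chromosome, the groups did not overlap for 25 genes that were lower (29.8%) and 10 that were higher (11.9%), against 21.9% and 27.1% of all genes tested.

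The ligand gene maverick (mav) encodes a member of the TGF-beta family. It had 2156, 2300 and 2456 normalised counts in WT and 1584 and 1842 after M1BP RNAi, with a log2 fold change of -0.43 (DESeq2 adjusted p 0.00741, SE 0.131). The ligand gene myoglianin (myo), of the same family and expressed in muscle, stood at 0.01 (SE 0.0808). Ephrin, a membrane-bound ligand, had 4938, 4833 and 4341 normalised counts in WT and 4042 and 3885 after M1BP RNAi, a log2 fold change of -0.25 (DESeq2 adjusted p 0.0551, SE 0.10). Its receptor gene Eph had a log2 fold change of -0.24 (DESeq2 adjusted p 0.139, SE 0.124), with groups that did not overlap either.

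PlexB encodes a plexin, a receptor for semaphorins. PlexB had 1144, 1130 and 968 normalised counts in WT and 725 and 840 after M1BP RNAi, with a log2 fold change of -0.47 (DESeq2 adjusted p 0.0191, SE 0.159). The other plexin gene of the chromosome, PlexA, had a log2 fold change of -0.21 (SE 0.157) and overlapped between groups. Within the cell, the small GTPase gene Arl4 had 1564, 1556 and 1531 normalised counts in WT and 1224 and 1249 after M1BP RNAi. Its log2 fold change of -0.33 (DESeq2 adjusted p 0.00109, SE 0.0839) missed both thresholds, although the libraries of each group differed little. The phosphoinositide kinase gene PIP4K stood at -0.17 (DESeq2 adjusted p 0.130, SE 0.0854) and Slip1 at -0.25 (DESeq2 adjusted p 0.0525, SE 0.0992). The downstream effector genes ci, for the Hedgehog pathway, and pan and lgs, for the Wnt pathway, had log2 fold changes of 0.14, 0.08 and -0.13, with SE of 0.134, 0.109 and 0.0757.

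Of 13 transcription factor genes, dati was called, 9 had a negative and 4 a positive log2 fold change, and the median was -0.19. Sox102F, an HMG-box factor, had 756, 563 and 509 normalised counts in WT and 414 and 426 after M1BP RNAi, with a log2 fold change of -0.54 (DESeq2 adjusted p 0.0947, SE 0.245). Hcf, a cofactor of chromatin-modifying complexes, stood at -0.19 (DESeq2 adjusted p 0.102, SE 0.0889). Mitf, a regulator of lysosomal genes, had 1336, 1261 and 943 normalised counts in WT and 1401 and 1462 after M1BP RNAi, a log2 fold change of 0.28 (DESeq2 adjusted p 0.327, SE 0.203). The Pax genes were near the limit of detection. The eye gene ey had 11.7 to 21.0 normalised counts in WT and 1.46 and 13.7 after M1BP RNAi, and sv had 52.2 to 91.7 in WT and 76.7 and 10.8 in M1BP RNAi. The M1BP RNAi libraries thus differed in opposite directions for these genes. The listed factors toy and fd102C, and fuss among the signalling genes, fell below 50 counts.

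In the list of muscle and calcium genes, 9 were tested, Zyx was called, 4 had a positive and 5 a negative log2 fold change, and the median was -0.16. The list includes CaMKI but not CaMKII, which stood lower at -0.33 (SE 0.134, DESeq2 adjusted p 0.0539). Ank, which encodes ankyrin and links membranes to the cytoskeleton, had 11491, 11221 and 11436 normalised counts in WT and 11381 and 11694 after M1BP RNAi. The 95% interval of its log2 fold change ran from -0.09 to 0.12. For PMCA the interval was -0.39 to 0.02, and for CG1674, the most counted of the 84 genes, it was -0.15 to 0.30.

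Of the 11 genes in the neuronal list, 10 were lower, with a median log2 fold change of -0.32, and none was called. Ephrin, Eph, PlexA and PlexB are also in the signalling list, so these lists are not independent. CG11155 and Gat, both with positive log2 fold changes, are in neither list. At an unadjusted p under 0.05, 4 of the 11 passed (36.4%, against 35.7% of all genes). At an adjusted p of at most 0.05 by DESeq2, 2 passed (18.2%, against 24.4%), so neither share stood out from that of all genes. Cadps, a factor of dense-core vesicle release, had 923, 1219 and 1993 normalised counts in WT and 648 and 477 after M1BP RNAi. The groups did not overlap, although WT itself spanned more than a factor of 1.5. The log2 fold change was -1.29 (DESeq2 adjusted p 0.00546, SE 0.381), and it was called without WT replicate 1, at -1.52 (DESeq2 adjusted p 2.94e-04). Calsyntenin (Cals), the most abundant neuronal gene per kb, had 13654, 13081 and 12922 normalised counts in WT and 13968 and 14598 after M1BP RNAi, a log2 fold change of 0.11 (DESeq2 adjusted p 0.215, SE 0.0664). The synaptotagmin gene Syt7 stood at -0.04 (SE 0.263). The 4 general neuronal markers summed to less in both M1BP RNAi libraries than in WT. Their sum was carried by elav, with a log2 fold change of -0.08, while Syt1 stood at -0.91, brp at -1.19 and nSyb at -0.94, none of them past an adjusted p of 0.05 by DESeq2. The part of neuronal transcripts in these values was not tested. CG11155, an ionotropic glutamate receptor gene that was singled out after its values were seen, had 361, 438 and 571 normalised counts in WT and 837 and 897 after M1BP RNAi, with a log2 fold change of 0.93 (DESeq2 adjusted p 0.00273, SE 0.256). Without WT replicate 3 it was called, at 1.12 (DESeq2 adjusted p 1.67e-05).

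The listed genes of RNA control and chromatin differed little. 4E-T, lower at -0.19 (SE 0.0736, DESeq2 adjusted p 0.0395), is not in this list. Of the 10 listed genes, 5 were positive and 5 negative, with a median log2 fold change of -0.03 and 0 calls. MED26, a subunit of the Mediator complex of transcription, had 3489, 3525 and 3553 normalised counts in WT and 2913 and 2959 after M1BP RNAi. Its log2 fold change of -0.26 (SE 0.0640) passed the p threshold (DESeq2 adjusted p 5.13e-04) but not the fold minimum. Gawky (gw), a core protein of microRNA-mediated silencing, stood at 0.06 (SE 0.0629), the Polycomb recruiter gene pho at 0.05 (SE 0.118) and Taf3, of the general transcription factor TFIID, at 0.05 (SE 0.0778).

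The 7 mitochondrial and metabolic genes had a median log2 fold change of -0.03, 3 positive and 4 negative, and the call among them was CG11076, for which no role is given here. The lipophorin gene apolpp, made in fat body, had 3884, 3377 and 1215 normalised counts in WT and 4078 and 3851 after M1BP RNAi (log2 fold change 0.49, DESeq2 adjusted p 0.479, SE 0.468). WT replicate 3 was low for apolpp, and the 4 fat body markers were low in the same library, at 5094 normalised counts against 9861 and 8340 in the other WT libraries and 10740 and 10500 in M1BP RNAi. JYalpha had 3.32, 0 and 2.13 normalised counts in WT and 62.1 and 0 after M1BP RNAi. Only M1BP RNAi replicate 2, the library with the most testis marker counts, held more than 3 counts of JYalpha. The part of fat body and testis transcripts in these values was not tested.

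The remaining 32 genes belonged to no list, with 16 positive and 16 negative log2 fold changes, a median of 0.01 and 0 calls. At an adjusted p of at most 0.05 by DESeq2, CG31998 (-0.29) and 4E-T (-0.19) were lower, and CG11155 was among those higher. The 13 non-coding RNA genes and pseudogenes had a median of 0.20, with 7 positive and 6 negative values, and 0 of them had an unadjusted p under 0.05 by DESeq2. At least 1 exon base was shared with another gene for 32 of the 84 genes. As for strand, Mpv17 had a count sum of 2389 while asRNA:CR44031, which covers 94.6% of its exon bases on the other strand, had 38.

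**Figure D3:**
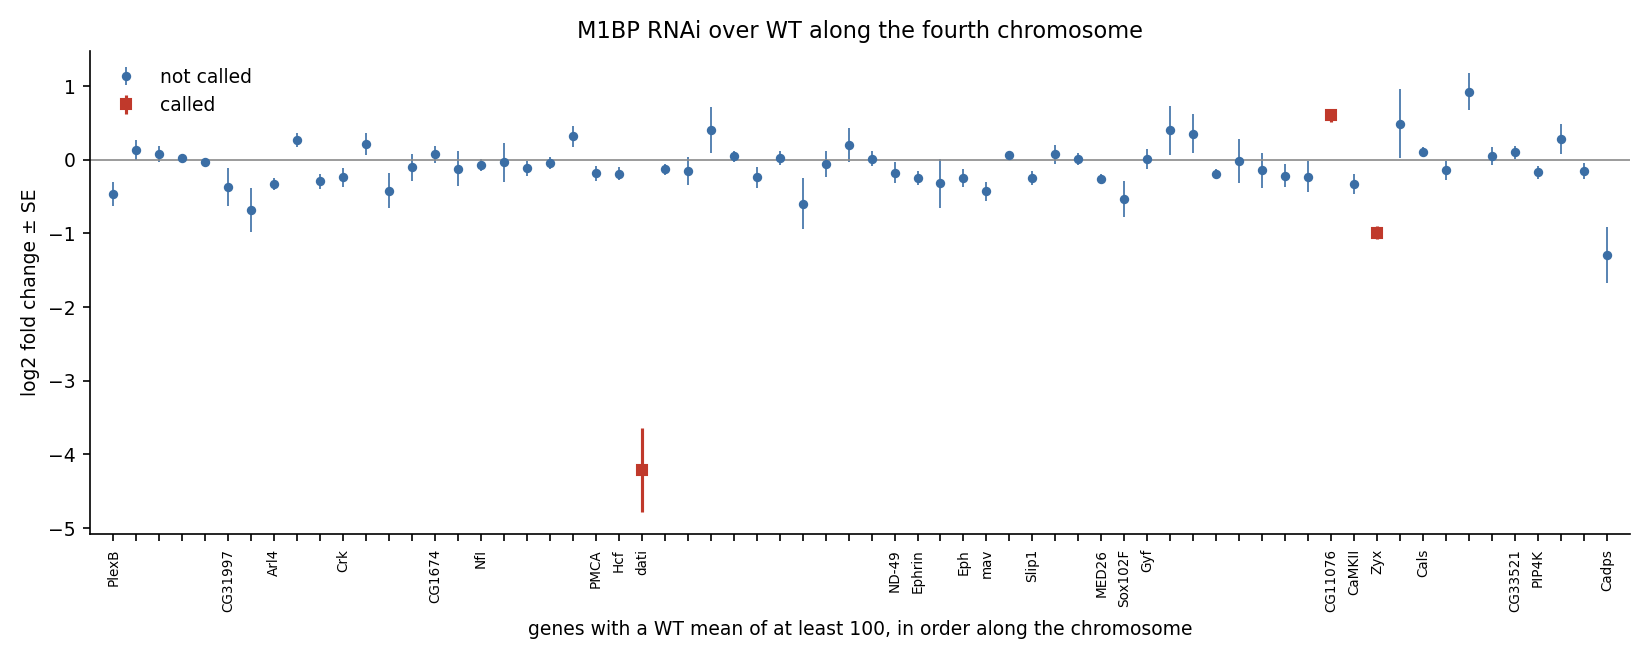
Log2 fold change (M1BP RNAi over WT, bars: SE) of the 66 fourth-chromosome genes with a WT mean of at least 100, in their order along the chromosome, with symbols for the genes named by rule. The called genes (squares) are dati, CG11076 and Zyx, and most other genes lie slightly below 0 from end to end.

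As a whole, the genes of the chromosome were shifted slightly down and were less spread than others. The median log2 fold change was -0.14, with 52 negative and 32 positive values (61.9% negative), against a median of 0.02 and 48.4% negative over all genes tested. The gap between these medians was -0.16, and it shrank to -0.06 without M1BP RNAi replicate 2, where the median was -0.09 on the fourth chromosome and -0.03 over all genes, 52.7% of them negative. Over tested genes of every level, the medians of the other arms were 0.04 (2L), 0.03 (2R), 0.01 (3L), 0.02 (3R) and 0.00 (X). Part of this gap moved with the level of the genes. With a WT mean of at least 1000, the median was -0.13 on the fourth chromosome (n = 50, 62.0% negative) and -0.09 over all genes (n = 4035, 60.4% negative). At this level the other arms stood close to the fourth chromosome, at -0.10 (2L), -0.08 (2R), -0.08 (3L), -0.10 (3R) and -0.11 (X). Between 100 and 1000 the median was -0.07 on the fourth chromosome (n = 16) against -0.01 over all genes (n = 3456). Under 100 it was -0.37 (n = 18) against 0.62 (n = 3791, 33.1% negative). The genes of the fourth chromosome had passed a count sum of 50, and with the same minimum for all genes the median of the low genes was 0.76 (n = 3007, 29.7% negative). Without M1BP RNAi replicate 2, the library with the most testis marker counts, the medians of the low genes were -0.23 on the fourth chromosome (n = 8) and 0.07 over all genes (n = 1554, 46.5% negative). The difference among low genes was thus smaller without that library, where fewer genes were tested, and each of them was measured with a large error.

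The log2 fold changes of the fourth chromosome also lay in a narrower range. With a WT mean of at least 100, the interquartile range was 0.31 on the fourth chromosome and 0.54 over all genes, and 89.4% of the 66 genes lay within 1.5-fold of WT, against 79.9%. With a WT mean of at least 1000 these shares were 92.0% and 83.6%. Without M1BP RNAi replicate 2 the interquartile ranges at a WT mean of at least 100 were 0.30 and 0.47. No test was made of these differences, since genes are not replicates. Along the chromosome, the median was -0.09, -0.17 and -0.08 in the first, middle and last group of 22 genes. Spearman's rho across these 66 genes was 0.095 between the log2 fold change and position and 0.033 between the log2 fold change and the WT level per kb, given as a description.

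**Figure D4:**
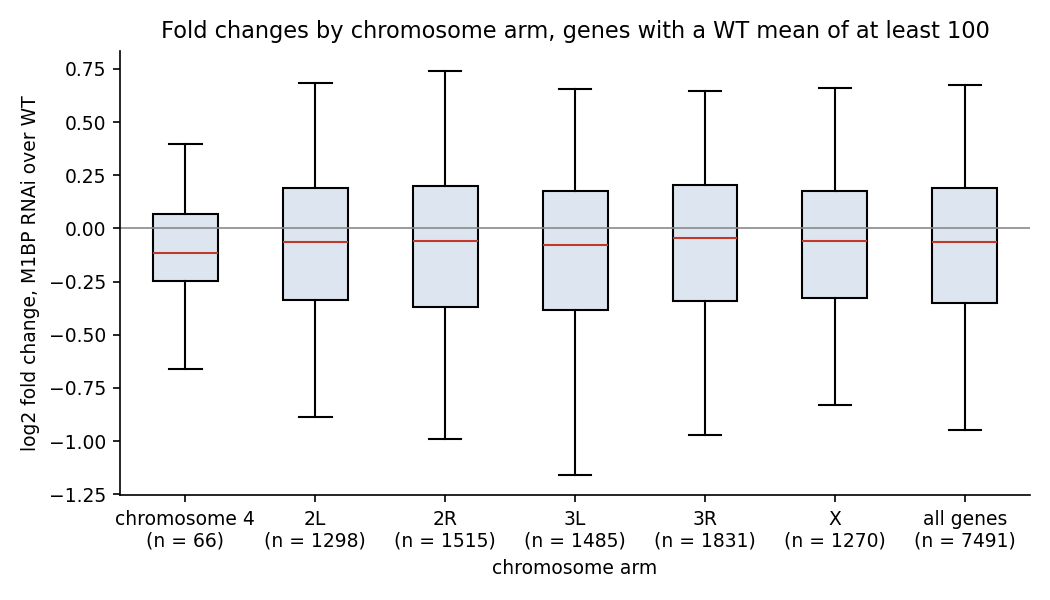
Log2 fold changes (M1BP RNAi over WT) by chromosome arm for genes with a WT mean of at least 100. Boxes span the quartiles with the median in red and whiskers the 5th to 95th percentile, and the fourth chromosome has the lowest median (-0.12) and the narrowest box (0.31). The medians of the other arms lie close to it, from -0.08 (3L) to -0.05 (3R).

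As a share of nuclear counts, the 84 genes moved the other way from their median log2 fold change. The 84 genes took 1.24%, 1.24% and 1.18% of nuclear counts in the WT libraries against 1.34% and 1.29% after M1BP RNAi. The shares did not overlap between groups. The summed normalised counts of the 84 genes were 521965, 489702 and 542246 in WT and 502555 and 503438 in M1BP RNAi, so that their mean was 2.89% lower and within the WT range. The sum over all nuclear genes was 10.1% lower. The share of the 84 genes was therefore higher while they were, at the median, slightly lower. This is not the share of the whole chromosome, since ATPsynbeta, left out by name, had 2322187 counts on its own over the 5 libraries. CG1674 and CG33521, with 15.0% and 13.2% of the counts of the 84 genes in WT, both had positive log2 fold changes that did not pass the test.

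A list of 11 regulator genes, among them those named above for the fourth chromosome, was also read, and all 11 lie on other chromosomes. HP1c was called lower and 0 were called higher, where 2.98% and 3.78% of all genes were. There were 5 positive and 6 negative log2 fold changes, with a median of -0.08. An unadjusted p under 0.05 by DESeq2 was found for 6 of the 11 (54.5%, against 35.7% of all genes), 3 of them lower. The groups did not overlap for 5 regulators that were lower and 4 that were higher, where 21.9% and 27.1% of all genes did not. HP1c, a heterochromatin protein 1 family member that is found mainly in euchromatin, had 558, 612 and 638 normalised counts in WT and 327 and 287 after M1BP RNAi. The mean fell from 602 ± 40.7 (SD, n = 3) to 307 ± 28.7 (SD, n = 2), and the log2 fold change was -0.97 (DESeq2 adjusted p 1.39e-07, SE 0.166). The call did not hold in edgeR (0.0120), with lncRNA:roX1 as a covariate (0.0133), without WT replicate 2 (0.00253), or without M1BP RNAi replicate 2 (0.00113) or 3 (0.00502), while the direction did.

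The gene that encodes HP1a had 2105, 2101 and 2284 normalised counts in WT and 2362 and 2468 after M1BP RNAi, a log2 fold change of 0.16 (DESeq2 adjusted p 0.210, SE 0.0931). The methyltransferase gene egg stood at 0.20 (DESeq2 adjusted p 0.0697, SE 0.0835). Its cofactor gene wde was lower at an adjusted p of 0.05, with 2515, 2712 and 2835 normalised counts in WT and 2055 and 2165 after M1BP RNAi (log2 fold change -0.35, SE 0.102, DESeq2 adjusted p 0.00496). Su(var)3-9, a second histone H3 lysine 9 methyltransferase gene, was higher at that threshold (0.42, SE 0.157, DESeq2 adjusted p 0.0326).

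Pof had 448, 498 and 468 normalised counts in WT and 1174 and 538 after M1BP RNAi. Only M1BP RNAi replicate 2 was clearly higher, and it was the library with 4806 normalised counts of testis markers. The log2 fold change of Pof was 0.86 (DESeq2 adjusted p 0.0751, SE 0.374), and 0.20 (DESeq2 adjusted p 0.799) without that library. The part of testis transcripts in this value was not tested.

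**Figure D5:**
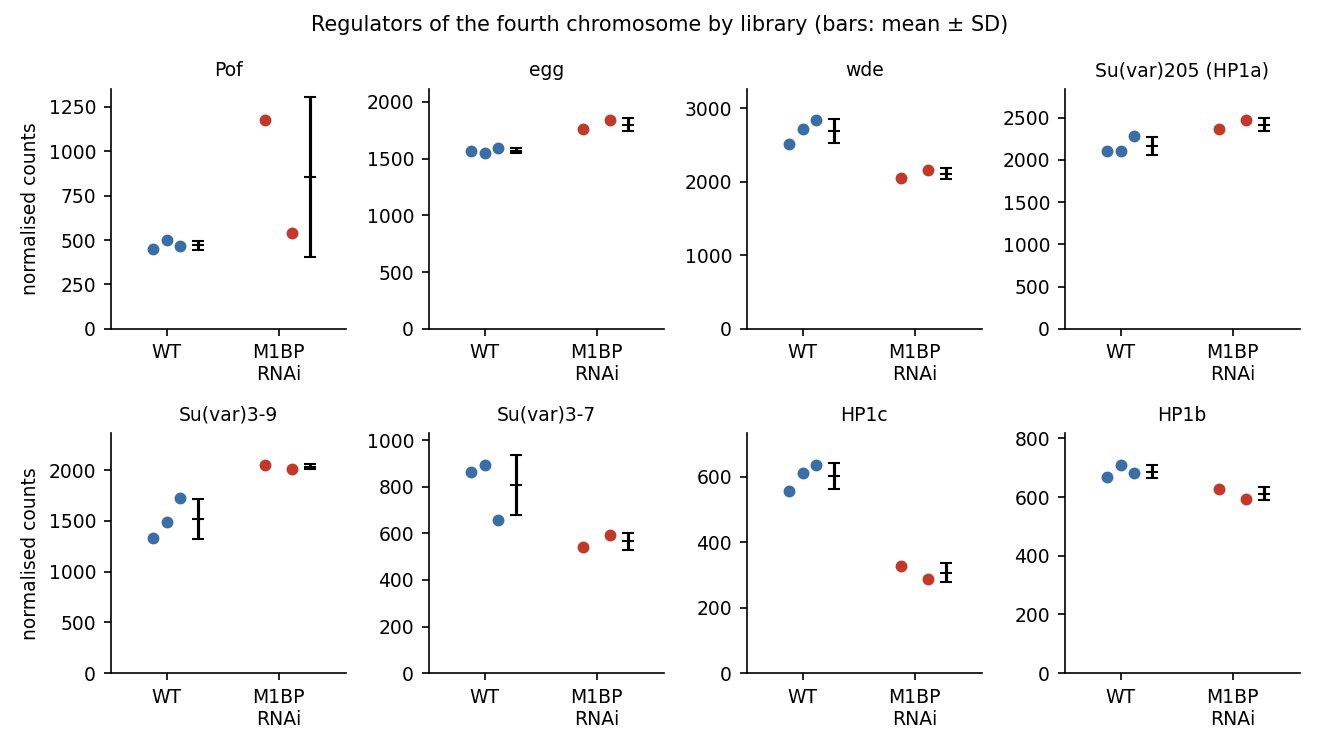
Normalised counts per library of 8 of the listed regulators in WT (blue, n = 3) and M1BP RNAi (red, n = 2). Black bars give the mean and SD, and each axis starts at 0. HP1c lies lower in both M1BP RNAi libraries (327 and 287) than in WT (558 to 638), and Pof is high in M1BP RNAi replicate 2 only.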

How the data were processed

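The deposited table holds raw counts of reads over the exons of each gene, as the authors made it, with exon coordinates (dm6) and length. The submitters' processing notes name bcl2fastq 2.17.1.14, Subread 2.0.3, featureCounts and DESeq2 1.3.0. The aligner, the annotation release and the strand setting are not given in the sources used here. A second table, with the authors' own fold changes and p-values, was not used. Counts of all 17494 genes were fitted in R 4.3.3 with DESeq2 1.42.0 (Wald test, all 5 libraries, no covariate, Benjamini-Hochberg adjustment over the 11282 genes given an adjusted p). The thresholds are those of the study, an adjusted p of 0.001 or less with a fold change of 1.5 or more. Groups were taken from the sample titles. The members and gene lists were chosen with earlier results of these data known.

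Named by rule were M1BP, called genes, the 10 highest genes per kb, list members with an unadjusted p under 0.05 or the highest level of their list, and called regulators. Any other gene was picked with its values in view. The fit was repeated with edgeR 4.0.16 (quasi-likelihood test), with TMM size factors, a filter of 10 counts in 2 libraries, independent or Cook's distance filtering off, mitochondrial genes left out, the replicate number as a block, lncRNA:roX1 as a covariate, other thresholds and member rules, and each library left out. The count-sum minimum applied to all genes, and the spread without M1BP RNAi replicate 2, were added after seeing the data. The fits were tested on simulated data. The annotation supplied (BDGP6) held all 84 genes, 83 of them with the same span. The trachea marker dys was not matched in the table. No sequences were used here.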

Additional observations from a re-analysis of the deposited data

How the results depend on the processing

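The number of fourth-chromosome genes called was 3 in the main DESeq2 fit, 0 in edgeR (0 higher, 0 lower) and 2 to 5 when 1 library was left out, with 5 without WT replicate 3. It was 5 at an adjusted p of 0.05 with the fold minimum. The 1 higher call became 0 with the replicate block, 0 with the roX1 covariate, 0 to 2 without 1 library, 2 at an adjusted p of 0.05 and 2 with the genes left out by name kept in, where unc-13 was added (log2 fold change 0.67, DESeq2 adjusted p 7.21e-05). The median log2 fold change of -0.14 was -0.13 with TMM size factors, -0.15 with the replicate block and -0.155 to -0.087 without 1 library. The medians of the WT libraries, each taken against the WT mean, had an SD of 0.0117. That SD covers no spread between M1BP RNAi libraries. The cause of the differences between fits was not tested. For M1BP the log2 fold change of -0.61 was -0.60 in edgeR, with the replicate block (-0.605) and with the roX1 covariate, and -0.68 to -0.52 without 1 library, with adjusted p of 0.0243, 0.443 and 0.193 in these 3 fits and 0.0135 to 0.181 without 1 library. Of 325 values of 25 other named genes over 13 fits, 308 kept their direction and their side of the thresholds. Most of these genes were not called in the main fit and so had no call to lose. The 14 values that lost a call all belonged to HP1c, CG11076, dati and Zyx, the named genes called in the main fit. The 2 values that gained a call belonged to Cadps, and only Gyf changed sign (-0.088 to 0.098 without 1 library). Over all genes, the 762 calls (426 higher, 336 lower) became 8 in edgeR, 315 with the block (119 higher, 196 lower), 302 with roX1 (133 and 169), 510 (250 and 260), 491 (235 and 256) and 682 (336 and 346) without WT replicates 1, 2 and 3, and 319 (140 and 179) and 937 (628 and 309) without M1BP RNAi replicates 2 and 3. With 1 M1BP RNAi library left, that library is assumed to vary like WT. With the replicate block the 2 lower calls were Zyx and Cadps (-1.49, DESeq2 adjusted p 7.78e-04), and dati (0.0013), CG11076 (0.0167) and HP1c (0.112) were not called. Libraries of the same replicate number had correlations of deviations of -0.34 for number 2 and -0.09 for number 3. The deviations of the 2 M1BP RNAi libraries mirror each other, so this check cannot show whether libraries were prepared in pairs.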
